A study of Mus musculus with 10 samples.

Results

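The mitochondrial ribosomal protein genes are the nuclear genes for the proteins of the mitochondrial ribosome. They were taken as every protein-coding gene of the RefSeq annotation of the mouse GRCm38.p6 assembly (the coordinates of mm10) whose symbol is Mrpl or Mrps followed by a digit. This gave 78 of 21887 protein-coding genes, 51 for the large subunit, 26 for the small subunit and Mrps36. The large-subunit count holds Mrps18a and Mrps30, whose products sit in the large subunit in spite of their symbols. Mrps36 keeps its symbol although its product is now known as a subunit of the oxoglutarate dehydrogenase complex, so it is a member by name and in neither subunit. The rule uses names and no measured value, though the family was picked for study with earlier results of these data known.

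The cells were embryonic stem cells of a male mouse, cultured feeder-free in medium with serum and LIF. For m6A, polyadenylated RNA of Mettl3-KO cells (2 immunoprecipitates and 2 inputs) was set against that of Mettl3-WT cells (2 immunoprecipitates and 2 inputs). For YTHDC1, total RNA of Halo-Ythdc1 knockin cells gave 1 RNA immunoprecipitate (RIP) and 1 input; the Halo-tagged protein was pulled down on beads with a denaturing wash and without cutting the RNA. No label says how the Mettl3 knockout was made, whether it was 1 clone, or whether samples of a group were separate cultures. The cell type label of the Mettl3-KO samples reads WT, and the genotype was taken from the titles.

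The mitochondrial ribosome makes the few proteins that mitochondrial DNA encodes, all of them parts of the respiratory chain and ATP synthase, and its own proteins are translated in the cytosol and imported. N6-methyladenosine (m6A) is the commonest internal mark of messenger RNA; METTL3 is the catalytic subunit of its writer, and in most transcripts the mark lies near the stop codon and in long last exons. YTHDC1 is the nuclear reader of m6A. Antibodies against m6A in general also bind a doubly methylated adenosine that can stand next to the cap of transcripts beginning with A, which is written by PCIF1 and not by METTL3.

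The data are 3 lists of peak positions: 6764 Mettl3-KO m6A peaks, 12368 Mettl3-WT m6A peaks and 30992 peaks of the YTHDC1 pull-down. A list gives chromosome, start and end, with no height, strand or replicate, so a gene either holds a peak or does not, and neither depth nor RNA level is known. In such bulk samples fewer cells making an RNA cannot be told apart from less RNA per cell. The labels name the WT list for both WT immunoprecipitates and for 1 KO immunoprecipitate, and the KO list only for the other KO immunoprecipitate. Of 10 embryonic stem cell markers 9 held a peak in some list (none in Dppa5a), against 2 of 10 markers of feeders, primitive endoderm and trophoblast. All intervals below are exact 95% binomial intervals, which cover counting error only, and no test was made between lists, since each is a single set of positions.

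Peaks were common in the mitochondrial ribosomal protein genes in all 3 lists. A peak belonged to a gene if its midpoint lay in the gene's span, from the first to the last annotated base. In the Mettl3-KO list 33 of 78 genes held an m6A peak (42.3%, interval 31.2 to 54.0%), against 18.2% of all protein-coding genes. In the Mettl3-WT list 38 of 78 held one (48.7%, 37.2 to 60.3%), against 30.3% of all protein-coding genes. A YTHDC1 RIP peak lay in 58 of 78 (74.4%, 63.2 to 83.6%), against 42.2%. Of all protein-coding genes, 48.3% held no peak in any list. RNA level is not known here, so its part in these differences, also in those by span length below, was not tested.

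Most members with an m6A peak were marked in 1 genotype only, as were most protein-coding genes with one. Of the 58 members with any m6A peak, 13 were in both lists. Of the 8089 protein-coding genes with any m6A peak, 2523 were. A KO peak with no WT peak was found in 20 genes (25.6%), against 6.66% of all protein-coding genes, and a WT peak with no KO peak in 25 genes (32.1%), against 18.8%. Both lists marked 13 genes (16.7%, 9.18 to 26.8%), against 11.5% of all protein-coding genes. The family held 0.844% of the KO peaks, 0.414% of the WT peaks and 0.488% of the RIP peaks that lay in protein-coding genes, and made up 0.356% of those genes. Only 5 members held no peak in any list (6.41%, against 48.3% of all protein-coding genes): Mrpl14, Mrpl23, Mrpl30, Mrpl40 and Mrpl55.

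**Figure D1:**
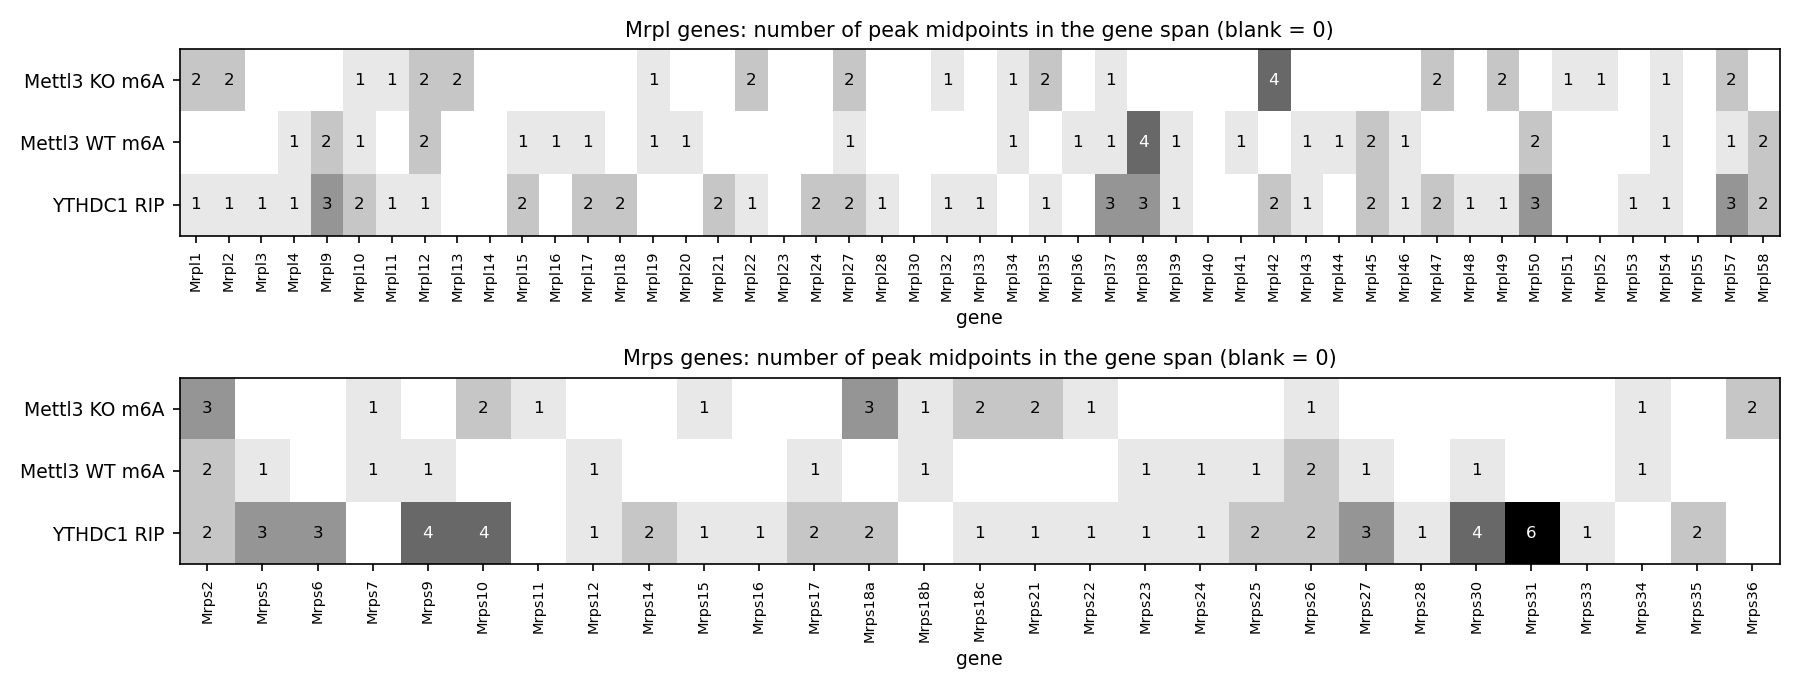
Number of peak midpoints in the span of each Mrpl gene (upper panel) and Mrps gene (lower panel), with the Mettl3 KO m6A, Mettl3 WT m6A and YTHDC1 RIP lists as rows and darker cells for more peaks. Mrpl42 holds 4 KO peaks, Mrpl38 holds 4 WT peaks and Mrps31 holds 6 RIP peaks, the highest count of each list.

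The 20 genes with KO peaks alone were Mrpl1, Mrpl2, Mrpl11, Mrpl13, Mrpl22, Mrpl32, Mrpl35, Mrpl42, Mrpl47, Mrpl49, Mrpl51 and Mrpl52 among the Mrpl symbols, and Mrps10, Mrps11, Mrps15, Mrps18a, Mrps18c, Mrps21, Mrps22 and Mrps36 among the Mrps symbols. They include Mrpl2, whose bacterial homologue lies at the peptidyl transferase centre, and Mrpl11, of the base of the factor-binding stalk. Mrpl42, a protein found only in mitochondrial ribosomes, had the most KO peaks of the family, 4. Mrps18a and Mrps2 had 3 each.

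The 25 genes with WT peaks alone were Mrpl4, Mrpl9, Mrpl15, Mrpl16, Mrpl17, Mrpl20, Mrpl36, Mrpl38, Mrpl39, Mrpl41, Mrpl43, Mrpl44, Mrpl45, Mrpl46, Mrpl50 and Mrpl58, and Mrps5, Mrps9, Mrps12, Mrps17, Mrps23, Mrps24, Mrps25, Mrps27 and Mrps30. Mrps12 belongs to the decoding centre of the small subunit. Mrpl45 lies at the exit of the peptide tunnel, where the ribosome meets the inner membrane. Mrpl58 is a peptidyl-tRNA hydrolase built into the large subunit, and Mrpl44 has a fold like that of ribonucleases. Mrpl38 had 4 WT peaks, and 7 other members of the family had 2.

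The 13 genes in both lists were Mrpl10, Mrpl12, Mrpl19, Mrpl27, Mrpl34, Mrpl37, Mrpl54, Mrpl57, Mrps2, Mrps7, Mrps18b, Mrps26 and Mrps34. Mrpl10 and Mrpl12 form the stalk that recruits translation factors, and Mrpl12 is also known to bind the mitochondrial RNA polymerase. Another 15 genes had a RIP peak and no m6A peak (19.2%, 11.2 to 29.7%), near the 14.8% of all protein-coding genes: Mrpl3, Mrpl18, Mrpl21, Mrpl24, Mrpl28, Mrpl33, Mrpl48, Mrpl53, Mrps6, Mrps14, Mrps16, Mrps28, Mrps31, Mrps33 and Mrps35.

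The subunits were marked at much the same rate in the m6A lists. KO peaks were found in 21 of 51 large-subunit genes (41.2%) and in 11 of 26 small-subunit genes (42.3%), and WT peaks in 25 of 51 (49.0%) and 13 of 26 (50%). RIP peaks were found in 36 of 51 (70.6%, 56.2 to 82.5%) and 22 of 26 (84.6%, 65.1 to 95.6%), with overlapping intervals. By ancestry, and leaving Mrps36 aside, 45 members were assigned a bacterial homologue, by hand and from general knowledge. The other 32 are called mitochondria-specific here, which does not say that each lacks any bacterial relative. Mrps18a, Mrps18b, Mrpl44 and Mrpl58 are among these 32. KO peaks lay in 12 of the 32 mitochondria-specific genes (37.5%) and 20 of the 45 with a bacterial homologue (44.4%). WT peaks lay in 19 of the 32 (59.4%, 40.6 to 76.3%) and 19 of the 45 (42.2%, 27.7 to 57.8%), with overlapping intervals.

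The members are short genes, and those under 20 kb held peaks more often than all protein-coding genes of like length. Their spans ran from 825 bp (Mrpl53) to 121712 bp (Mrps28) with a median of 7690.5 bp, against 17169 bp for all protein-coding genes. Of the 25 members under 5 kb, 13 held a KO peak (52%, 31.3 to 72.2%), against 9.14% of all protein-coding genes of that length. WT peaks lay in 14 of the 25 (56%), against 12.9%, and RIP peaks in 15 (60%), against 14.9%. Of the 30 members of 5 to 10 kb, 12 held a KO peak (40%), against 18.5%. WT peaks lay in 15 of them (50%), against 26.9%, and RIP peaks in 22 (73.3%), against 31.5%. Of the 13 members of 10 to 20 kb, 5 held a KO peak (38.5%, 13.9 to 68.4%), against 21.7%. WT peaks lay in 7 of the 13 (53.8%, 25.1 to 80.8%), against 33.6%. Both shares of all genes lie within the intervals. RIP peaks lay in 12 of the 13 (92.3%), against 43.6%. Of the 10 members of 20 kb or more, 3 held a KO peak (30%, 6.67 to 65.2%), against 21.3%. In the WT list the order was the other way round at that length, with 2 of the 10 (20%, 2.52 to 55.6%), against 38.7%, which lies within the interval. Of the same 10, 9 held a RIP peak (90%), against 58.5%.

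**Figure D2:**
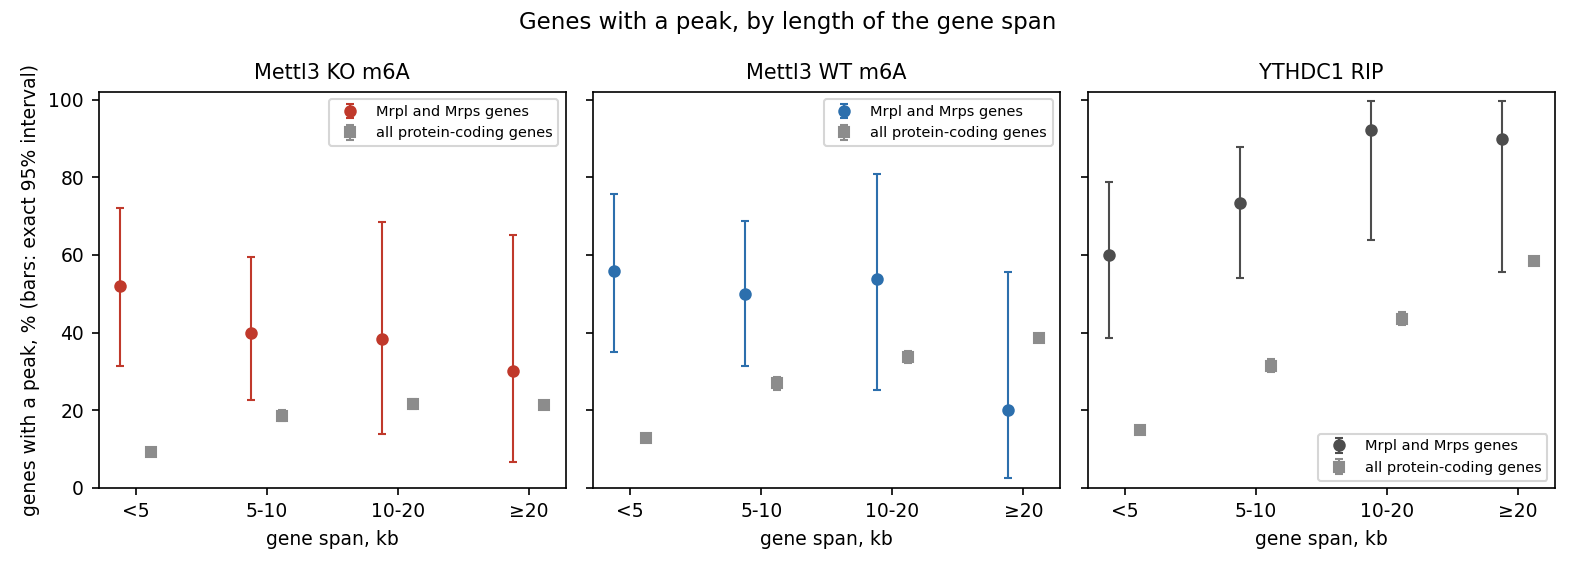
Share of genes with at least 1 peak (y axis, %) by length of the gene span (x axis, kb) in each list, for the Mrpl and Mrps genes (circles) and all protein-coding genes (squares), with exact 95% intervals. Under 5 kb the members stand at 52%, 56% and 60% in the KO, WT and RIP lists, and all protein-coding genes at 9.14%, 12.9% and 14.9%.

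WT and RIP peaks were fewer per marked gene in the members than in all protein-coding genes, and KO peaks were not. A member with a KO peak held 1.64 on average, against 1.66 for all protein-coding genes with one. A member with a WT peak held 1.26, against 1.81, and a member with a RIP peak held 1.83, against 2.42. The members' spans are shorter (median 7690.5 bp, against 17169 bp), and these means were not adjusted for span length. The part of span length in them was not tested. The 54 KO peaks had a median width of 250 bp (100 to 450 bp), as did the KO peaks of all protein-coding genes. The 48 WT peaks had a median width of 350 bp (100 to 850 bp), against 400 bp, and the 106 RIP peaks one of 223 bp, against 200 bp. The widest WT peaks lay in Mrps7 and Mrps23 (850 bp each) and Mrpl43 (800 bp), and no member held a peak of 1 kb or more. The spans of Mrps7, Mrps23 and Mrpl43 each overlap another gene, so peaks in the shared stretches cannot be given to these members alone. In the WT list 9.85% of all peaks in protein-coding genes were that wide, and in the KO list 0.234%.

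The place of the m6A peaks along the gene differed between the genotypes. Strand was known for 69 of the 78 genes, through RefSeq's listed transcription starts, and these held 49 KO peaks and 39 WT peaks. For KO peaks, 37, 10, 2 and 0 of 49 midpoints fell in successive stretches of 25% of the span from the start, or 75.5%, 20.4%, 4.08% and 0%. For WT peaks, 5, 2, 6 and 26 of 39 did, or 12.8%, 5.13%, 15.4% and 66.7%. Peaks of all other protein-coding genes leaned the same way in both lists, with 54.4% of KO peaks in the first 25% of the span and 62.4% of WT peaks in the last 25%. In the KO list the last 25% of the span held 0 of 49 member peaks (interval 0 to 7.25%), against 20.3% of the KO peaks of other genes. RIP peaks were spread along the whole span, with 29.2%, 17.7%, 24.0% and 29.2% of 96 midpoints in the 4 stretches. The RIP peaks of other genes were spread much alike, at 32.7%, 19.4%, 20.3% and 27.6%.

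**Figure D3:**
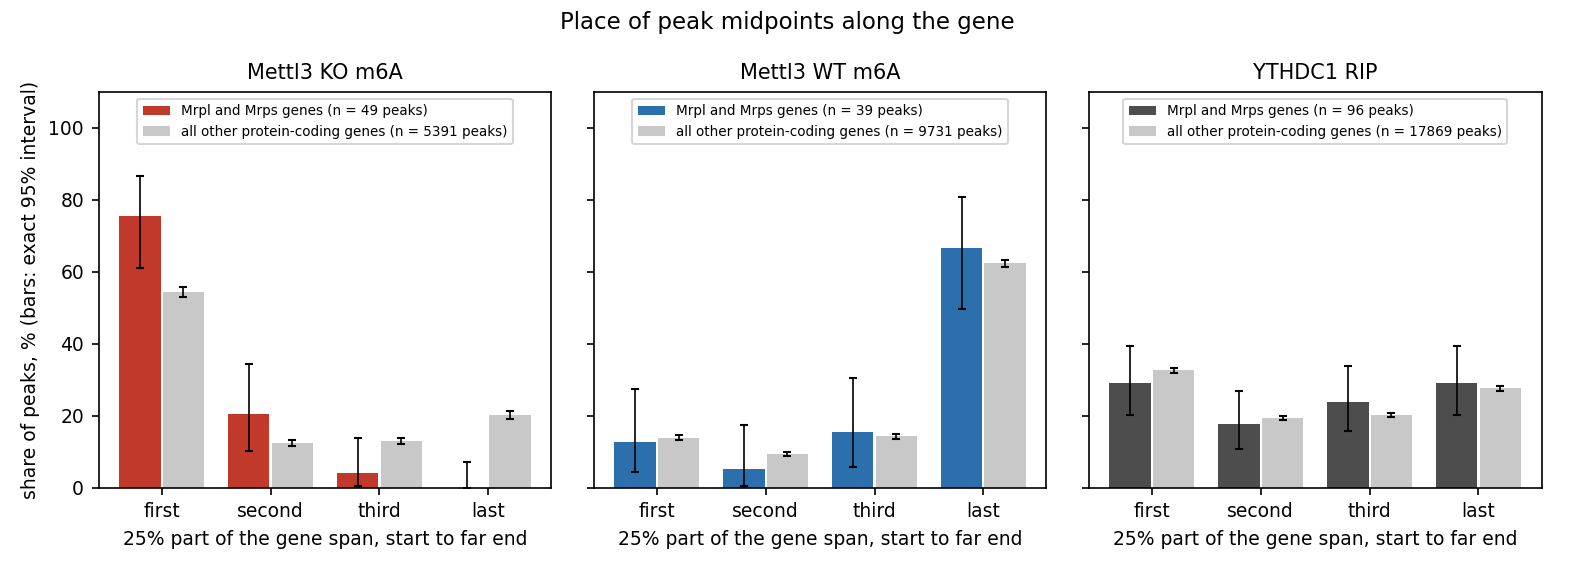
Share of peak midpoints (y axis, %) in each 25% of the gene span (x axis, start to far end) in the Mettl3 KO m6A, Mettl3 WT m6A and YTHDC1 RIP lists, for the Mrpl and Mrps genes (coloured bars) and all other protein-coding genes (grey bars), with exact 95% intervals. Of the member peaks, 75.5% of the KO peaks lie in the first 25% of the span and 66.7% of the WT peaks in the last 25%.

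KO peaks often sat at the transcription start. Of the 49 KO midpoints in members of known strand, 26 lay within 200 bp of a listed start (53.1%, 38.3 to 67.5%). In other protein-coding genes 37.5% of KO midpoints did. A KO midpoint lay within 200 bp of a listed start in 26 of 69 members (37.7%, 26.3 to 50.2%), against 11.6% of all protein-coding genes with a known strand. WT peaks did so in 2 of 69 (2.90%), against 2.48%, and RIP peaks in 8 of 69 (11.6%), against 7.26%. Among genes that held a KO peak at all, the start was marked in 26 of 29 members (89.7%, 72.6 to 97.8%) and in 1997 of 3253 other genes (61.4%, 59.7 to 63.1%). The 3 exceptions were Mrps10, whose peak lay 221.5 bp before the listed start and inside the gene span, Mrps11 (394.5 bp after it) and Mrps15 (522.5 bp after it). The 4 members of unknown strand with a KO peak, Mrpl13, Mrpl19, Mrpl54 and Mrps34, each had one 61 to 123 bp from a span end.

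The 26 genes with a KO peak at the start were Mrpl1, Mrpl2, Mrpl10, Mrpl11, Mrpl12, Mrpl22, Mrpl27, Mrpl32, Mrpl34, Mrpl35, Mrpl37, Mrpl42, Mrpl47, Mrpl49, Mrpl51, Mrpl52, Mrpl57, Mrps2, Mrps7, Mrps18a, Mrps18b, Mrps18c, Mrps21, Mrps22, Mrps26 and Mrps36. Their peak midpoints ran from 15.5 bp before the start (Mrpl27) to 140.5 bp after it (Mrpl37), and Mrpl27 alone was on the upstream side. Counting every KO peak of the genome near these 69 starts, 25 midpoints lay within 200 bp downstream and 3 within 200 bp upstream. For all other protein-coding genes the numbers were 1945 and 237. The bin of the first 100 bp held 19 KO midpoints of the members and the next 100 bp held 6. RIP midpoints began later, with 1 in the first 100 bp, 6 in the next and 6 in the one after. They did so in all other protein-coding genes too, with 331, 866 and 501 in the same bins.

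**Figure D4:**
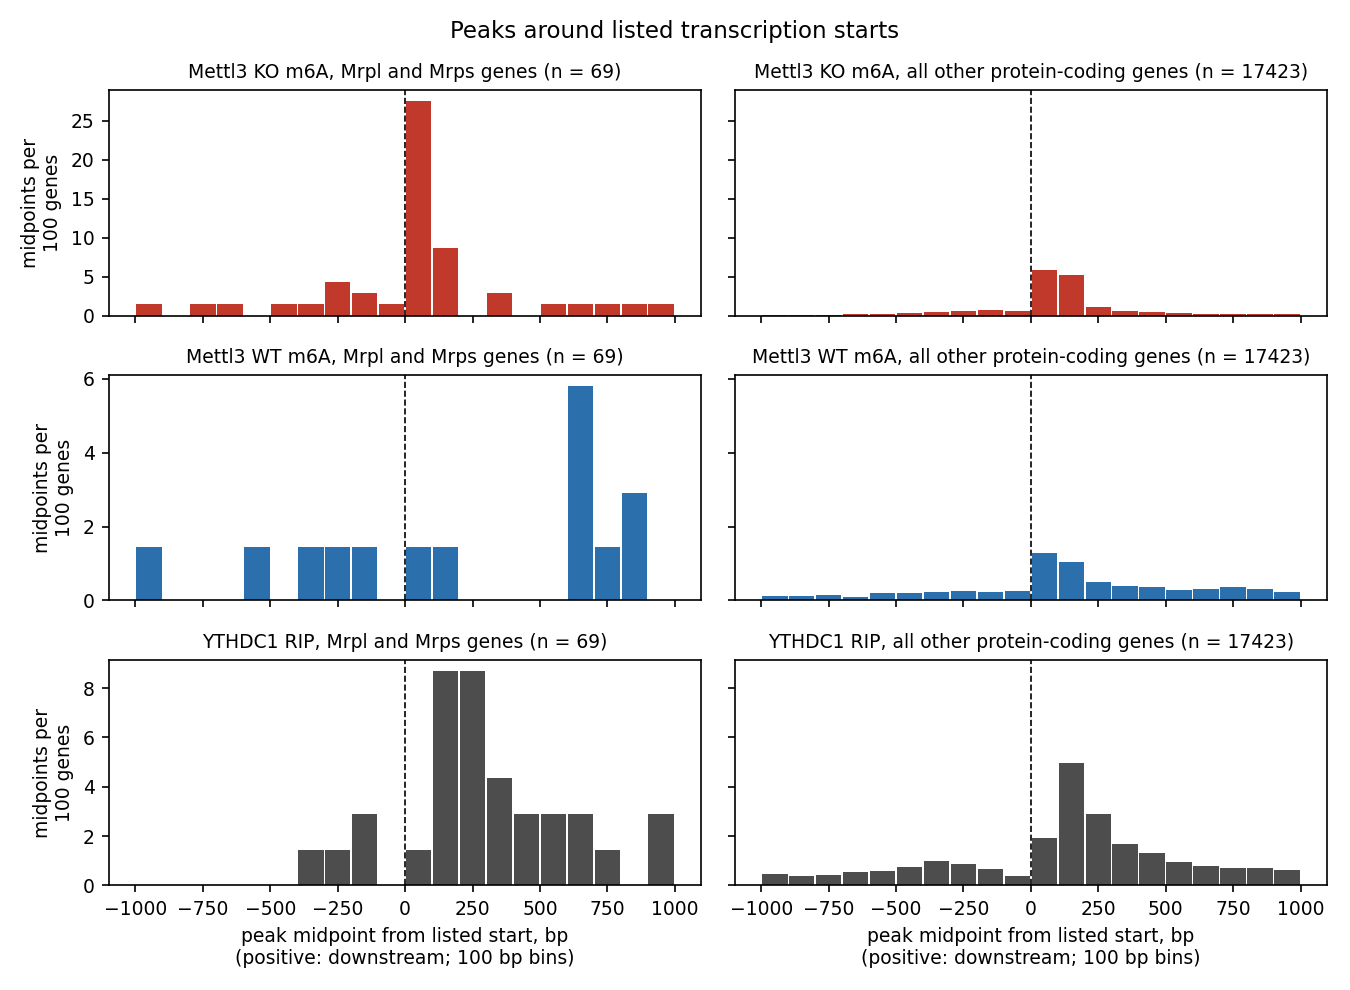
Peak midpoints per 100 genes (y axis) in 100 bp bins from 1 kb before to 1 kb after a listed transcription start (x axis, bp), for the 69 Mrpl and Mrps genes with a known strand (left) and the 17423 other protein-coding genes (right), with a scale of its own for each list. The KO list peaks at 27.5 midpoints per 100 members in the first 100 bp after the start, where 19 midpoints of 69 genes fall.

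The sequence at the starts is shown for the 6 genes that held both a KO peak at the start and a WT peak in the last 25% of the span, to give examples with peaks of the 2 lists at opposite ends. They are 8.70% of the 69 members with a known strand (3.26 to 18.0%), against 5.13% of other genes, which lies within the interval. In Mrpl12 the start held a WT peak as well. Each line gives 30 bases of RefSeq's GRCm38.p6 sequence on the gene's strand, 5′ to 3′, with the listed first transcribed base in capitals. They lie at chr11:97041567-97041596 (plus strand, Mrpl10), chr11:120484622-120484651 (plus, Mrpl12), chr8:71464911-71464940 (plus, Mrpl34), chr11:115604125-115604154 (plus, Mrps7), chr17:35916426-35916455 (minus, Mrps18b) and chr2:130563742-130563771 (plus, Mrps26).
Mrpl10: ctccgcgcagcgcgcAtgggaacttcctgt
Mrpl12: agctcgcctcctcccGgatagagcgtcgct
Mrpl34: gaactacatttcccaGaaggcattgtcaag
Mrps7: tgtgggcagccctccGaggtcctgacagcg
Mrps18b: cattgcggggcgtgtCcttggcccacccta
Mrps26: acttccgggccgggcGcaggcgcaggcgct

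Of these 6, only Mrpl10 began with A. Over the 26 members with a KO peak at the start, 5 began with A (19.2%, 6.55 to 39.4%) and 16 with G (61.5%, 40.6 to 79.8%). Of the 43 without, 7 began with A (16.3%, 6.81 to 30.7%) and 22 with G (51.2%). Among all 17492 protein-coding genes with a listed start, A came first in 38.3% and G in 38.5%. Of the other genes with a KO peak at the start, 31.7% began with A. A listed start is 1 annotated base, and starts used in these cells were not measured; the part of the first base in the KO peaks was not tested.

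Several of these genes share their start region with a neighbour. Of the 26 genes with a KO peak at the start, 16 had another gene within 500 bp of the span start, and of the 43 without, 21 did. The lists have no strand, so a peak between divergent genes cannot be given to 1 of them. In the members with no such neighbour, 10 of 23 KO peaks lay within 200 bp of a listed start. The share in other protein-coding genes, with or without a neighbour, was 37.5%. Mrpl46 and Mrps11, a large-subunit and a small-subunit gene, stand head to head on chromosome 7. There a RIP peak (chr7:78782826-78783055) lay 148.5 bp into Mrpl46, and a KO peak (chr7:78783301-78783750) 394.5 bp into Mrps11.

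WT peaks lay toward the far end of the gene. The last 25% of the span held a WT midpoint in 23 of the 32 members with a WT peak and a known strand (71.9%, 53.3 to 86.3%), against 77.7% of the other genes with a WT peak. Measured in bp, the members' peaks were nearer to the end. The median distance from midpoint to far end was 762.5 bp, against 3063.5 bp in other genes, at 85.1% and 86.1% of the span. The members' spans are shorter (median 7690.5 bp, against 17169 bp for all protein-coding genes), and the bp distances were not adjusted for span length. Within 1 kb of the far end lay 21 of 39 WT peaks (53.8%, 37.2 to 69.9%), against 22.2%, and 1 of 49 KO peaks (2.04%), against 4.67%. The closest were in Mrpl46 (134 bp from the far end), Mrps5 (135 bp), Mrpl34 (152 bp) and Mrpl20 (155 bp). Without exons in the reference used here, stop codons and last exons were not located.

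The gene Mrps5, known in mouse for a mutation that lowers the accuracy of mitochondrial translation, had its WT peak at chr2:127603751-127603950 in a span of 16561 bp. In Mrps27, a pentatricopeptide repeat protein with a span of 70796 bp, the WT peak (chr13:99414851-99415550) lay 361 bp from the far end. In Mrps9 the WT peak lay 6832 bp from the far end, the greatest such distance among peaks in the last 25% of a span.

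A minority of WT peaks lay elsewhere. In Mrpl12 and Mrpl37 a WT peak stood at the listed start, 88.5 and 165.5 bp from it, where each also had a KO peak. In Mrpl12 the start peak was the same in both lists, chr11:120484601-120484850. In Mrpl41 and Mrpl57 the WT midpoint lay 622 bp from the span start, and in Mrpl17 it lay 1211 bp from it. Mrpl38, whose strand was not known here, had 4 WT peaks in 2 pairs, with midpoints 258 and 608 bp from one span end and 567 and 967 bp from the opposite one.

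The genes marked in both lists show the contrast within single gene spans. Of the 13, 10 had a known strand. Among these, the spans of Mrpl27, Mrpl37, Mrpl57, Mrps2, Mrps7 and Mrps18b overlap another gene. Peaks in the shared stretches have no strand and cannot be given to the member alone. The peak nearest the start was a KO peak in 9 of 10 (90%, 55.5 to 99.7%), against 69.4% of 2098 other genes marked in both lists. The peak nearest the far end was a WT peak in 9 of 10, against 81.8%. In Mrpl37, counted among the 9 at each end, the only KO and WT peaks both stood at the start, 140.5 and 165.5 bp after it, and shared 350 bp. Mrpl12, with identical start peaks, was the exception at the start, and Mrps2, whose last KO midpoint lay 1684.5 bp after the listed start and its last WT midpoint 1634.5 bp after it, was the exception at the end. Median positions of WT and KO peaks in a gene were 1375 bp apart in the members, against 5650 bp in other genes, without adjustment for span length.

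**Figure D5:**
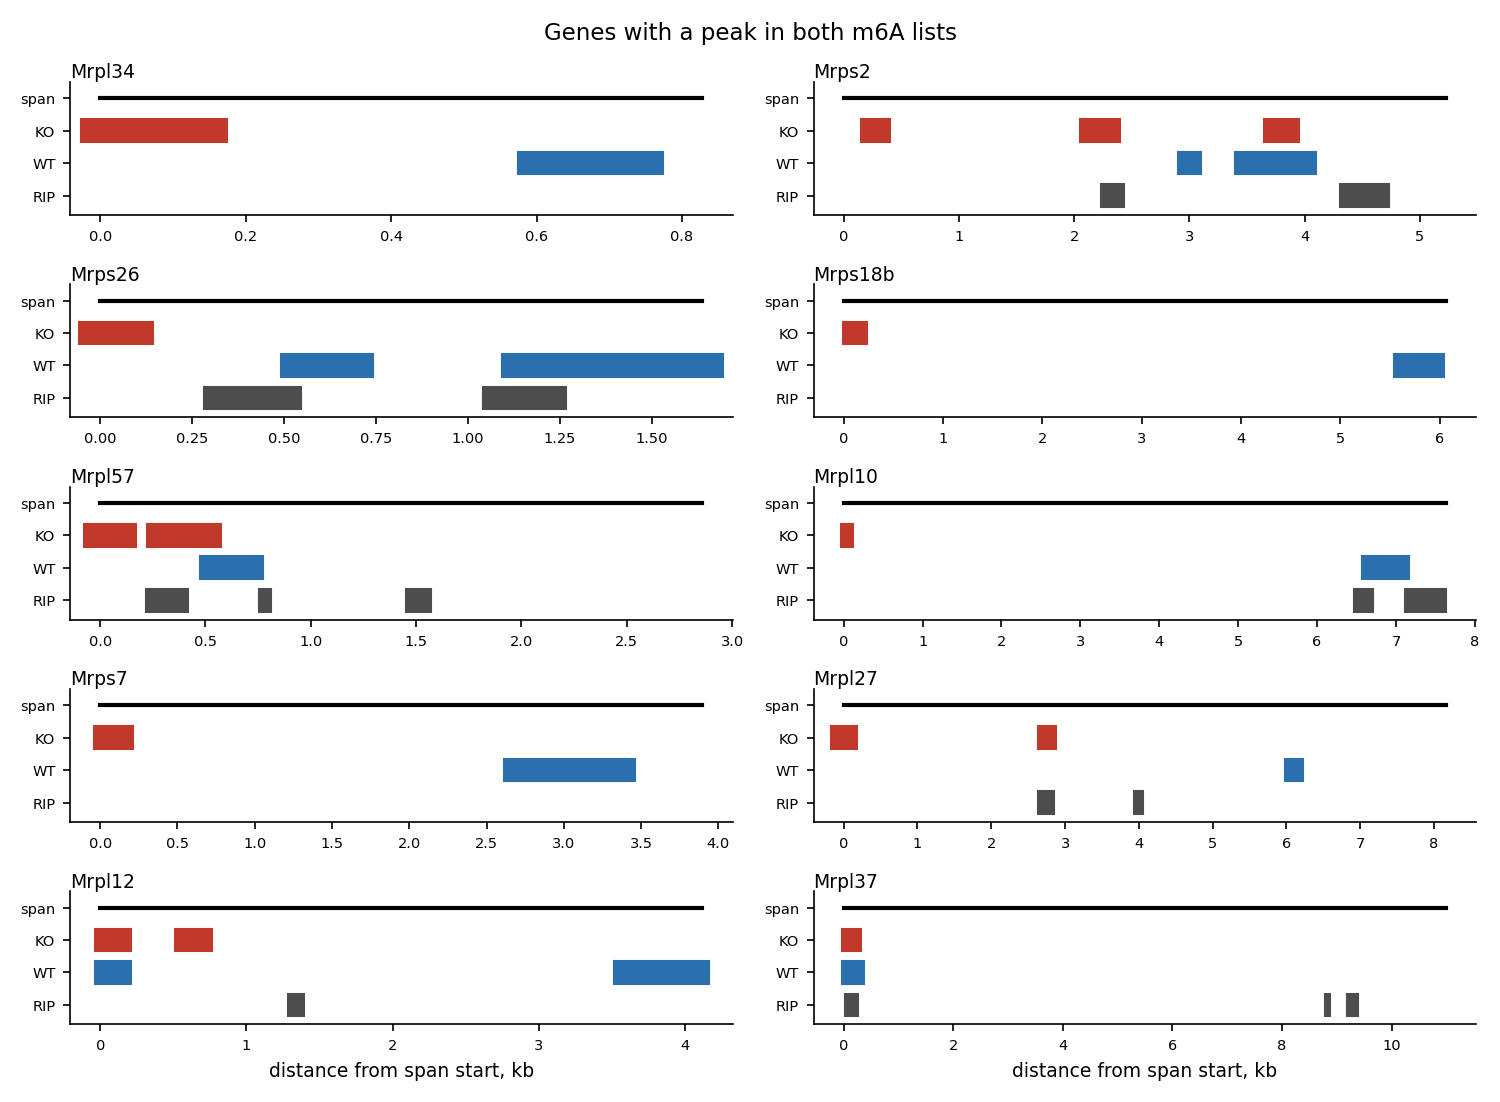
Peaks of the Mettl3 KO m6A (red), Mettl3 WT m6A (blue) and YTHDC1 RIP (grey) lists along the span (black line) of the 10 genes of known strand marked in both m6A lists, with the distance from the span start in kb on the x axis of each panel. The KO peak comes first and the WT peak later in Mrpl34, Mrps18b, Mrpl10 and Mrps7, and Mrpl12 and Mrpl37 have peaks of both lists at the start.

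In Mrps26, a span of 1638 bp, the KO peak (chr2:130563701-130563900) had its midpoint 43.5 bp after the listed start, and the WT peaks lay 618.5 and 1393.5 bp after it. In Mrps7 the KO midpoint lay 85.5 bp and the WT midpoint 3035.5 bp after the start. In Mrpl10 they lay 43.5 and 6868.5 bp after it. The very short Mrpl34 (828 bp) repeated the order at 74.5 bp (KO) and 674.5 bp (WT). In these 4 genes no KO peak touched a WT peak.

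The genes of unknown strand gave a like picture without saying which end was the start. In Mrpl54 the KO midpoint lay 75 bp from one end of the span and the WT midpoint 28 bp from the opposite end. In Mrps34 the distances were 105 bp (KO) and 363 bp (WT), again at opposite ends. In Mrpl19 the KO midpoint lay 123 bp from an end and the WT midpoint 4048 bp from the nearest end, near the middle of the span.

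KO and WT peaks of the members seldom coincided. A KO peak shared at least 1 bp with a WT peak in 4 of 54 cases (7.41%, 2.06 to 17.9%), against 21.4% for the other protein-coding genes. Seen from the other list, 4 of 48 WT peaks met a KO peak (8.33%), against 11.7%. The 4 pairs were in Mrpl12 (250 bp shared), Mrpl37 (350 bp), Mrps2 (300 bp) and Mrpl57 (100 bp). The 2 peaks of Mrpl12 and the 2 of Mrpl37 stood at the start, and the other pairs lay inside the gene.

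YTHDC1 RIP peaks met m6A peaks of both lists in the members, at shares whose intervals overlap. They overlapped 7 of 54 KO peaks (13.0%, 5.37 to 24.9%), against 21.7% in other genes. They overlapped 11 of 48 WT peaks (22.9%, 12.03 to 37.3%), against 13.0% in other genes, though with 50% of the narrower peak required the count was 7. At KO start peaks the overlap was 3 of 26 (11.5%, 2.45 to 30.2%), against 26.9%. The 7 KO peaks were in Mrpl22, Mrpl27, Mrpl37, Mrpl57, Mrps2, Mrps10 and Mrps18a. The 11 WT peaks were in Mrpl9, Mrpl10, Mrpl17, Mrpl37, Mrpl38, Mrpl43, Mrpl57, Mrps26, Mrps27 and Mrps30, with 2 of them in Mrps26. In Mrps18a a 250 bp KO peak and a 206 bp RIP peak shared 205 bp, and in Mrpl22 a 200 bp KO peak and a 206 bp RIP peak shared 198 bp. In Mrps30 a 242 bp RIP peak (chr13:118380401-118380642) lay wholly in a 300 bp WT peak centred 440 bp from the far end. Of all 106 RIP peaks, 20 met an m6A peak of either list (18.9%, 11.9 to 27.6%), against 12.5% in other genes. In each of these comparisons the share of other genes lies within the members' interval.

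The members with the most RIP peaks came from both subunits. Mrps31 had 6, spread from 9.68% to 90.1% of its span of 19221 bp, and no m6A peak in either list. Mrps9, Mrps10 and Mrps30 had 4 each. In Mrps9 the RIP midpoints lay 235, 11283, 41019.5 and 54213 bp after the listed start, in a span of 54451 bp. With 3 each followed Mrpl9, Mrpl37, Mrpl38, Mrpl50, Mrpl57, Mrps5, Mrps6 and Mrps27. The widest RIP peak of the family, 629 bp (chr4:49512698-49513326), lay in Mrpl50, 415 bp from its far end and beside the WT peaks of that gene without touching them.

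RIP peaks at a listed start were found in Mrpl28, Mrpl37, Mrpl46, Mrpl50, Mrpl58, Mrps10, Mrps15 and Mrps18a. Mrpl37 and Mrps18a also had a KO peak there. They are 2.90% of the 69 members with a known strand (0.353 to 10.1%), against 2.36% of other genes, which lies within the interval. The 200 bp limit mattered for this count. Mrpl58, at 193.5 bp, was just inside it, and Mrpl3 (212.5 bp), Mrps30 (216 bp), Mrps2 (221.5 bp) and Mrps9 (235 bp) were just outside. In Mrps18a the RIP peak (chr17:46110950-46111155) and the KO peak (chr17:46110951-46111200) began at neighbouring bases.

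The start regions of the members often hold the sequence CCGGAAG, the core bound by ETS-family factors such as GABP, which are known regulators of nuclear genes for mitochondrial proteins. It was searched on both strands (CCGGAAG or CTTCCGG) in the 300 bases from 250 before to 50 after the listed start. It was present in 24 of 69 members (34.8%, 23.7 to 47.2%), against 12.05% of all protein-coding genes with a listed start. Of the members with a KO peak at the start 12 of 26 held it (46.2%, 26.6 to 66.6%), and of those without 12 of 43 (27.9%, 15.3 to 43.7%). Of the other protein-coding genes it was found in 25.3% of those with a KO peak at the start and in 10.2% of those without. GCATGCGC (or GCGCATGC), part of the site of NRF1, another regulator of mitochondrial genes, lay in 8 of 69 members (11.6%, 5.14 to 21.6%), against 3.61%. GGAC, the core of the METTL3 motif, lay in the first 50 transcribed bases in 7 of 26 members with a KO start peak (26.9%) and 12 of 43 without (27.9%), against 19.9% of all protein-coding genes. A match is a run of letters and not a bound or methylated site.

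The 60 bases before the start are shown for 3 members with a KO peak at the start and 2 without, to place the CCGGAAG match (in capitals, either strand) next to the start. They come from RefSeq's GRCm38.p6 sequence, on the gene's strand. With a KO start peak these are Mrps22 (chr9:98601680-98601739, minus strand), Mrps26 (chr2:130563697-130563756, plus) and Mrps18a (chr17:46110944-46111003, plus). Without one they are Mrpl53 (chr6:83109048-83109107, plus) and Mrpl43 (chr19:45006443-45006502, minus), each with 2 matches.
Mrps22: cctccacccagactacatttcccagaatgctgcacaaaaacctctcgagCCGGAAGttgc
Mrps26: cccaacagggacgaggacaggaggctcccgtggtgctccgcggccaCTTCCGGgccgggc
Mrps18a: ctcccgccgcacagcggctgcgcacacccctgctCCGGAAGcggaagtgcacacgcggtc
Mrpl53: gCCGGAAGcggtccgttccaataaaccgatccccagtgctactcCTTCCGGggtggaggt
Mrpl43: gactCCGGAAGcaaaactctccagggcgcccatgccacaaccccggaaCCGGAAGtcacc

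The match began 11 bases before the listed start in Mrps22, 14 in Mrps26 and 26 in Mrps18a. The matches of Mrpl53 began 16 and 59 bases before the start and those of Mrpl43 12 and 56 bases before it. Over all members with a match in these 60 bases, the nearest one began 11 to 55 bases before the start in the 7 with a KO start peak (median 37) and 12 to 48 bases before it in the 5 without (median 17), so the ranges overlap. Mrpl53 had 1 RIP peak and no m6A peak, and Mrpl43 had 1 WT peak (800 bp) and 1 RIP peak that shared 207 bp. The spans of Mrpl53 and Mrpl43 each overlap another gene.

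The 5 mitoribosomal proteins with other symbols were marked unevenly. Dap3, a GTP-binding protein of the small subunit, had 2 KO peaks, 0 WT peaks and 5 RIP peaks. Ptcd3, a pentatricopeptide repeat protein, had 0, 1 and 2. Gadd45gip1, of the large subunit, had 1, 1 and 2, its WT peak 850 bp wide. Chchd1 had 2 RIP peaks alone, and Aurkaip1 had no peak. Mrp63 and Ict1, other names in that list, are the members Mrpl57 and Mrpl58.

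Genes that build or use the mitochondrial ribosome held WT peaks more often than KO peaks, as did all protein-coding genes (18.2% with a KO peak, 30.3% with a WT peak and 42.2% with a RIP peak). Of 26 genes for ribosome assembly and ribosomal RNA modification, 4 held a KO peak (15.4%, 4.36 to 34.9%), 22 a WT peak (84.6%, 65.1 to 95.6%) and 18 a RIP peak (69.2%). Of 22 mitochondrial aminoacyl-tRNA synthetases and related amidotransferase subunits, 5 held a KO peak (22.7%, 7.82 to 45.4%), 15 a WT peak (68.2%, 45.1 to 86.1%) and 14 a RIP peak (63.6%). The KO shares of these lists were thus near that of all protein-coding genes. Of 17 translation factors, 6 held a KO peak (35.3%, 14.2 to 61.7%), 9 a WT peak (52.9%, 27.8 to 77.0%) and 12 a RIP peak (70.6%).

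KO peaks with no WT peak were found in 0 of the 26 assembly genes (interval 0 to 13.2%), 3 of the 22 synthetase genes (13.6%) and 2 of the 17 translation factors (11.8%), against 6.66% of all protein-coding genes. WT peaks with no KO peak were found in 18 of the 26 (69.2%), 13 of the 22 (59.1%) and 5 of the 17 (29.4%), against 18.8%. In the Mrpl and Mrps genes the corresponding counts were 20 and 25 of 78.

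Single genes of these lists span the range. Kars, which charges lysine tRNA in both cytosol and mitochondria, had 4 KO peaks and no WT peak. Mtif3, an initiation factor, had 5 WT peaks and no KO peak. Dhx30, an RNA helicase of ribosome assembly, had 2 KO and 2 WT peaks, and Mtg2, a GTPase, had 2 and 1. Trub2, a pseudouridine synthase, and Mterf4, which recruits a ribosomal RNA methyltransferase, had 3 WT peaks each and no KO peak, and so did Ears2, which charges glutamate tRNA. Gfm2, a ribosome recycling factor, had 2 KO, 1 WT and 6 RIP peaks. Oxa1l, the insertase that receives nascent chains, Mrrf, the recycling factor, and Tars2, which charges threonine tRNA, had 1 peak in each list. Pars2, which charges proline tRNA, had 1 KO peak (250 bp) and 1 WT peak of 1900 bp, wider than any peak in an Mrpl or Mrps gene.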

How the data were processed

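The authors deposited 3 peak lists, each with chromosome, start and end; the unit of these values is position in bp, with no score. MACS2 2.1.2, SAMtools 1.9, HISAT2 2.2.0, STAR 2.7, Trim Galore 0.6.4 and bcl2fastq are named, with mm10, in the submitters' processing notes, without their roles; sources used here do not give the peak threshold or any pooling of replicates. All m6A peaks start on a 50 bp grid and 2.04% of RIP peaks do, so the m6A and RIP lists were made by different steps.

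Midpoints were assigned to RefSeq GRCm38.p6 gene spans (Python 3.11.15, pandas 2.3.3, numpy 2.4.6, scipy 1.17.1), a midpoint in several spans counting for each. Strand and listed starts came from RefSeq start sequences, which cover 17492 of 21887 protein-coding genes; a start was at the span edge in 48 of 69 members and over 200 bp inside it in 12. Peaks overlapped at 1 bp. Shares, also those of 0, have exact Clopper-Pearson 95% intervals. The assignment of midpoints to genes was checked on simulated peaks set at known distances; no test between groups was made.

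Members and lists were chosen with earlier results of these data known. Named genes were every member with an m6A peak, the 12 members with most RIP peaks, the longest and shortest spans, the 5 mitoribosomal proteins with other symbols and up to 4 genes of each other list by m6A peaks; other members are named where small counts were listed. The measures by listed start, 25% of the span and sequence were chosen after seeing the files. Of the 18 translation factor names asked for, 1 had no match.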

Additional observations from a re-analysis of the deposited data

How the results depend on the processing

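Of 60 alternative values over 16 results, 35 stayed within 1.5 times the value given and 25 moved by more. With only peaks above the median width of their list, 12 members held a KO peak and 19 a WT peak, and 11 held a KO peak and no WT peak. In that setting 4 KO peaks and 0 WT peaks lay at a span end, 7 KO peaks and 0 WT peaks at a listed start, and 13 WT peaks in the last 25% of the span. WT peaks meeting KO peaks then numbered 1, KO peaks meeting RIP peaks 1 and WT peaks meeting RIP peaks 3. Within 200 bp of either span end lay 27 of 54 KO, 7 of 48 WT and 10 of 106 RIP midpoints. With 100 bp the WT and RIP counts were 2 and 1, with 500 bp 22 and 34, and by the nearest peak edge 19 and 26. At a listed start, 1 WT and 1 RIP peak lay within 100 bp; 19 RIP peaks lay within 500 bp and 16 by peak edge. Without members that have a neighbour within 500 bp, 10 KO, 1 WT and 4 RIP peaks lay at a listed start. Requiring an overlap of 50% of the narrower peak left 7 WT peaks meeting RIP peaks. The cause of these changes was not tested; the stricter settings use fewer peaks. By distance limit, the KO count at a listed start ran from 20 (100 bp) to 29 (500 bp). For KO peaks in the last 25% of the span, the other settings only took subsets of the same peaks. Their count of 0 was therefore fixed in advance. No paired analysis was possible because each list is 1 set of positions with no values by replicate and the results come from no test; leaving out a replicate was not possible for the same reason. Peak number and width grow with depth, which is unknown here.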
